A study of Mus musculus with 2 samples.

Results

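The clustered protocadherins are cadherin-type cell adhesion proteins whose genes lie in 3 neighbouring arrays, alpha, beta and gamma, on mouse chromosome 18. Members were taken by gene symbol (Pcdha, Pcdhb and Pcdhg followed by a number or letter), which gave 58 of the 43346 genes in the deposited tables: 14 alpha, 22 beta and 22 gamma genes, with 88 annotated transcripts. The rule used no measured value, though it was set with earlier results of these data known. The data were total RNA-seq of midbrain dissected from B6NCrl mouse embryos at embryonic day 11.5, in a single group of 2 libraries. Male and female embryos were pooled, 109 for replicate 1 and 88 for replicate 2, with 10 ng of RNA longer than 200 nt entering each library. No genotype, treatment or second stage was compared, so the results below are levels, relations between members and differences between the 2 pools. In whole tissue, fewer cells that express a gene and less RNA per cell cannot be told apart.

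Each alpha and gamma gene contributes its own large variable exon, with its own promoter, that is spliced to a set of constant exons shared by every gene of the array, whereas the beta genes are separate and have no constant exons. The variable exon encodes the extracellular and transmembrane parts of the protein, and the constant exons encode a common cytoplasmic end. In neurons, promoter choice among the alternate members varies from cell to cell and involves CTCF, cohesin and DNA methylation, whereas the members named C-type (Pcdhac1, Pcdhac2, Pcdhgc3, Pcdhgc4 and Pcdhgc5) follow other rules. The proteins bind identical partners on facing membranes and are known for self-avoidance of neuronal branches and, for the gamma genes, for the survival of interneurons.

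On mm10 the alpha genes spanned chr18:36930184-37187661, the beta genes chr18:37264938-37524479 and the gamma genes chr18:37661793-37841873, all on the plus strand. The beta array began 77.3 kb after the end of the alpha array, and the gamma array began 137 kb after the end of the beta array. The symbol Pcdha11 belonged to 2 genes in the annotation, and they are distinguished below by their identifiers. Pcdhgb8 is annotated as a polymorphic pseudogene.

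The libraries held 38884247 estimated read counts in genes in replicate 1 and 45975100 in replicate 2, and ERCC spike-ins took a further 6.89% and 6.66% of all counts. All 8 listed midbrain and isthmus genes were at 1 TPM (a level corrected for transcript length and library size) or more in both libraries, and 0 of 7 listed Hox genes were, and the listed neural progenitor and young neuron genes were all detected (6 of 6 and 6 of 6). Forebrain genes were detected for 4 of 5, blood for 5 of 5, endothelium for 5 of 5, mesenchyme for 5 of 5, microglia for 4 of 4 and mature glia for 2 of 4. The summed level of the 5 blood genes was 12936.6 TPM in replicate 1 and 13008.6 TPM in replicate 2, so the pools held RNA of several cell types. The part of each cell type in the levels below was not tested.

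Gamma genes carried most of the clustered protocadherin signal. Their summed level was 83.83 TPM in replicate 1 and 84.52 TPM in replicate 2, a mean of 84.2 ± 0.488 TPM (SD, n = 2). The beta genes summed to 11.94 TPM in replicate 1 and 11.04 TPM in replicate 2 (11.5 ± 0.636 TPM, SD, n = 2). The alpha genes summed to 6.09 TPM in replicate 1 and 7.54 TPM in replicate 2 (6.82 ± 1.03 TPM, SD, n = 2). The order gamma, beta, alpha was thus the same in both libraries, and the distance between the sums was larger than the spread between the pools. The 58 genes together made up 0.0295% of the counts in genes in replicate 1, and 0.0305% in replicate 2.

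The typical gamma gene was also higher than the typical alpha or beta gene. The median gamma gene stood at 3.21 TPM in replicate 1 and 3.18 TPM in replicate 2. The median was 0.36 TPM and 0.405 TPM for beta genes, and 0.43 TPM and 0.51 TPM for alpha genes, in the same order of libraries. On the log2(TPM + 0.1) scale the gamma median exceeded the alpha median by 2.64 in replicate 1 and 2.43 in replicate 2 (mean 2.53 ± 0.15, SD, n = 2, or 5.79-fold). The gamma median exceeded the beta median by 2.85 and 2.70 (2.77 ± 0.10, SD, n = 2, or 6.84-fold). The scale understates folds of genes near 0. Beta and alpha changed places with the measure: the beta sum was 1.96 times the alpha sum in replicate 1 and 1.46 times in replicate 2, while the beta median lay below the alpha median by -0.20 and -0.28 on the log2 scale. A pair of libraries cannot give an exact sign-flip p below 0.5, so these folds are given with their spread and no test.

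**Figure D1:**
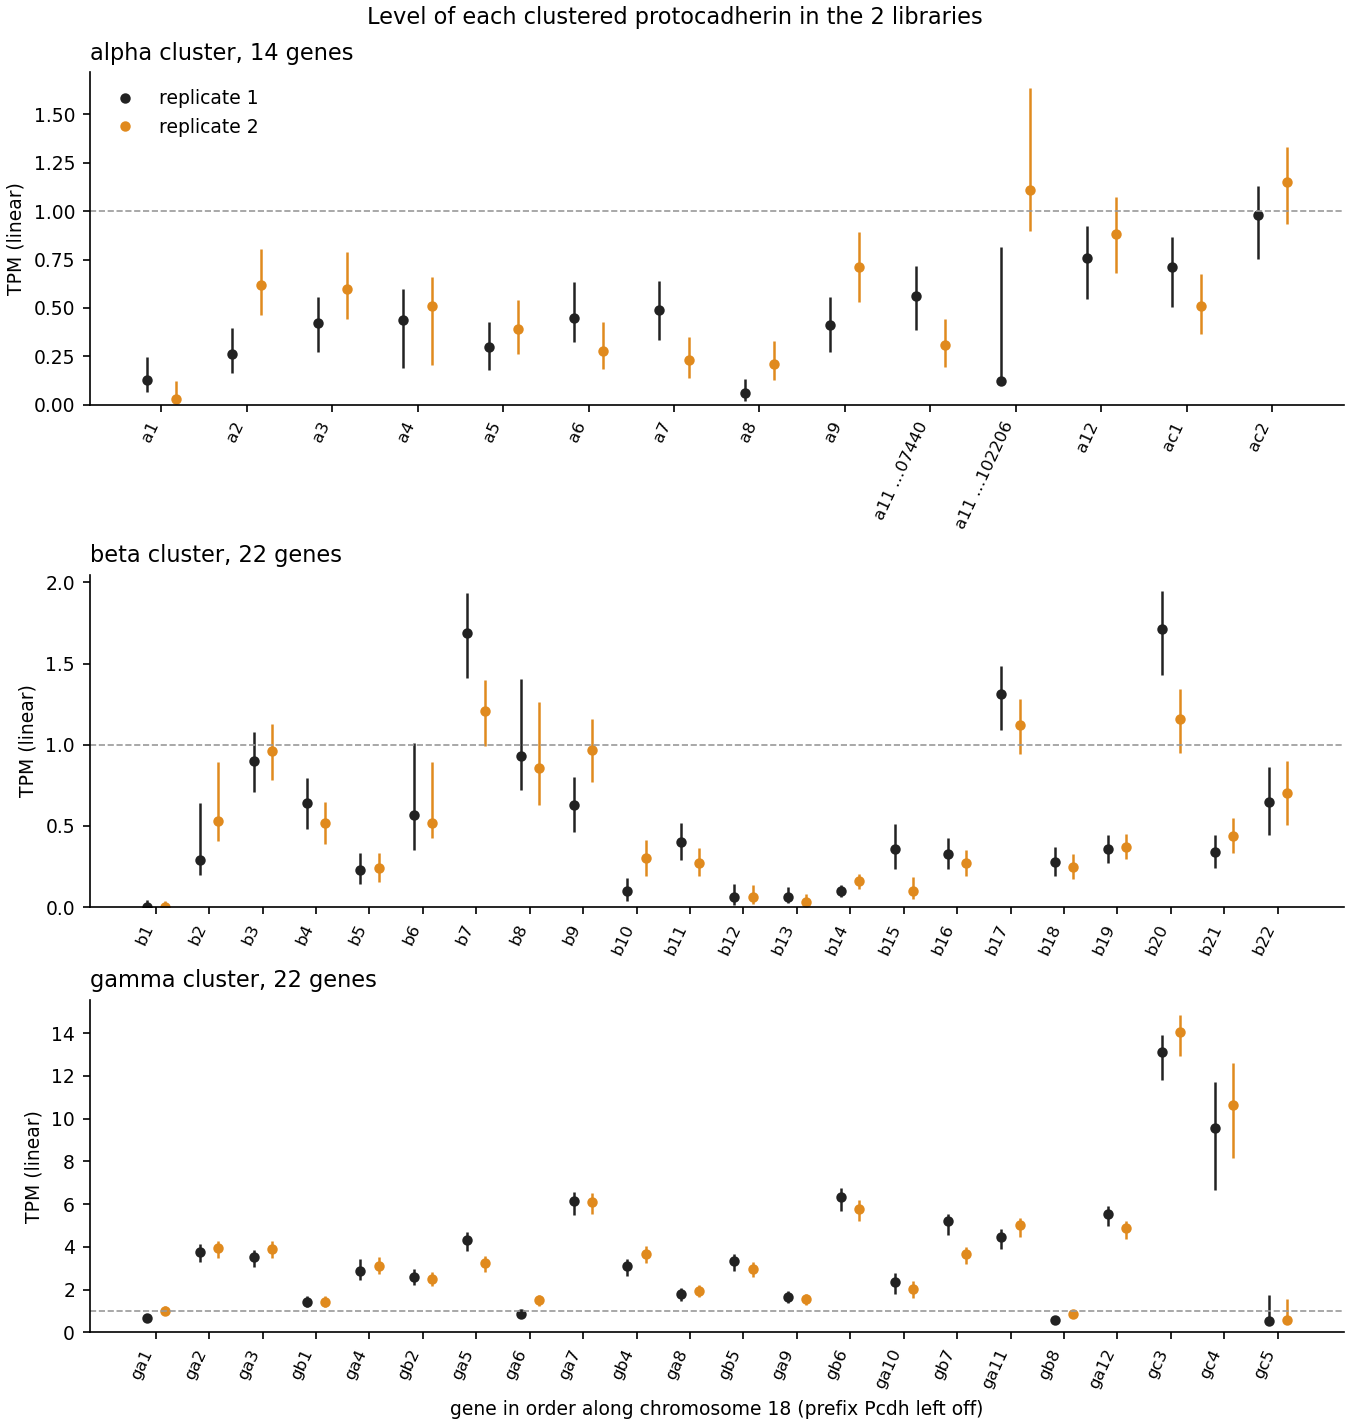
TPM (linear axis, from 0) of each gene in its order along chromosome 18, in 1 panel per array with its own scale; points are maximum likelihood TPM in replicate 1 (black) and replicate 2 (orange), vertical lines are the deposited TPM intervals and the dashed line marks 1 TPM. Pcdhgc3 at 13.13 and 14.06 TPM and Pcdhgc4, with all its transcript models, at 9.56 and 10.64 TPM stand above the other gamma genes, and no alpha or beta gene reaches 2 TPM.

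With 1 TPM in both libraries as the threshold, 21 of the 58 genes were detected, a share to be read beside 32.1% of all genes and 58.2% of protein-coding genes. The 21 were 18 of 22 gamma genes, 3 of 22 beta genes and 0 of 14 alpha genes. At 0.5 TPM the count was 34, made up of 22 gamma, 9 beta and 3 alpha genes, so the alpha and beta counts followed from a threshold placed among their levels. In replicate 2 alone, Pcdhac2 at 1.15 TPM and Pcdha11 (ENSMUSG00000102206) at 1.11 TPM passed 1 TPM.

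The C-type genes held the highest levels of the alpha and gamma arrays and some of the low ones. Pcdhgc3, whose cytoplasmic part is known to bind Axin1, was the highest member with 13.13 TPM in replicate 1 and 14.06 TPM in replicate 2 (13.6 ± 0.658 TPM, SD, n = 2), from 1478 and 1912 counts. Pcdhgc4, the member that interneuron survival is known to need, had 9.56 TPM and 10.64 TPM. Pcdhgc5, the last gene of the array and known in mature brain, had 0.53 TPM and 0.57 TPM, the lowest mean in the gamma array by maximum likelihood TPM. By posterior mean TPM it had 0.99 in both libraries, and Pcdhga1 and Pcdhgb8 were then lower. In the alpha array, Pcdhac2, known for the spacing of serotonergic axons, had 0.98 TPM and 1.15 TPM, the highest mean there. Pcdhac1 had 0.71 TPM in replicate 1 and 0.51 TPM in replicate 2. Pcdhgc3 ranked above 82.5% of all genes by mean TPM, Pcdhac2 above 67.3% and Pcdhgc5 above 63.6%.

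Of 5 C-type pairs, 4 were separated, meaning that the deposited TPM intervals of the pair did not overlap in either library. Pcdhgc3 was 1.34-fold higher than Pcdhgc4, with 1.37 in replicate 1 and 1.32 in replicate 2. It was 21.1-fold higher than Pcdhgc5 and 11.8-fold higher than Pcdhac2. Pcdhgc4 was 15.7-fold higher than Pcdhgc5. The remaining pair, Pcdhac2 over Pcdhac1, had ratios of 1.33 in replicate 1 and 2.05 in replicate 2, and its intervals overlapped in replicate 1. These folds carry a pseudocount of 0.1 TPM, and those over the low genes depended on it: with 1 TPM they were 9.41 for Pcdhgc3 over Pcdhgc5, 7.15 for Pcdhgc4 over Pcdhgc5 and 7.07 for Pcdhgc3 over Pcdhac2. By posterior mean TPM, a setting chosen after seeing the data, the folds over Pcdhgc5 were 12.3 for Pcdhgc3 and 9.12 for Pcdhgc4. As a class, the C-type genes had a median above that of the 53 alternate genes by 0.57 and 0.38 on the log2 scale (0.47 ± 0.13, SD, n = 2), and within the gamma array the same difference was 1.60 and 1.74 (1.67 ± 0.10, SD, n = 2). The gamma C-type median is Pcdhgc4 itself, and without its short model, described next, the difference was 0.022 in replicate 1 and -0.20 in replicate 2.

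The level of Pcdhgc4 rested on a short transcript model. The 2272-nt Pcdhgc4-203 held 6.42 TPM in replicate 1 and 7.94 TPM in replicate 2, which was 67.2% and 74.6% of the TPM of its gene. Of the 100-base windows of that model, 93.1% also occurred in another member, so most of its length is sequence that other members carry too. The 5024-nt Pcdhgc4-201, with 41.1% of its windows shared in that way, held 0.75 TPM and 0.86 TPM. The retained-intron model Pcdhgc4-202, with 0% shared, held 2.39 TPM and 1.84 TPM. Without the short model Pcdhgc4 stood at 3.14 TPM in replicate 1 and 2.70 TPM in replicate 2, so that Pcdhgc3 was 4.55-fold higher than Pcdhgc4, and Pcdhgc4 was 4.67-fold higher than Pcdhgc5. At that level 9 of the 19 alternate gamma genes, Pcdhga7 among them, were above Pcdhgc4 in both libraries. These values leave out the TPM of the short model without assigning its reads anew, while the other genes keep their constant-exon reads. They do not give the level that a new assignment would reach. Whether RNA of the short form or reads assigned from other gamma genes make up its level was not tested.

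Pcdhgc3 was carried mainly by the protein-coding Pcdhgc3-201, with 8.58 TPM in replicate 1 and 9.76 TPM in replicate 2. Its second model, Pcdhgc3-202, annotated as a target of nonsense-mediated decay, held 4.47 TPM and 3.95 TPM. Models not annotated as protein-coding made up 15.3% of the gamma sum in replicate 1 and 13.0% in replicate 2, against 3.12% and 4.52% of the alpha sum and 0% of the beta sum in either library. In the gamma array retained-intron models held 6.73 TPM and 5.21 TPM of that share.

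Among the 19 alternate gamma genes the levels in whole tissue were graded. Such levels do not show whether a gene is on or off in single cells, which was not tested. They also rest on an assignment of constant-exon reads. After the C-type genes Pcdhgc3 and Pcdhgc4, the next were Pcdhga7 with 6.13 TPM in replicate 1 and 6.11 TPM in replicate 2, Pcdhgb6 with 6.33 TPM and 5.79 TPM, and Pcdhga12 with 5.55 TPM and 4.88 TPM. At the low end Pcdhgb8 had 0.59 TPM and 0.88 TPM, Pcdhga1 had 0.67 TPM and 1.02 TPM, and Pcdhga6 had 0.86 TPM and 1.5 TPM. The A and B subfamilies were at like levels: the B median minus the A median was -0.04 in replicate 1 and -0.10 in replicate 2 on the log2 scale (-0.07 ± 0.04, SD, n = 2). When the gamma genes were ordered by mean TPM, 2 of 21 neighbouring pairs were separated by their intervals in both libraries, namely Pcdhgc3 above Pcdhgc4 and Pcdhgc4 above Pcdhga7. The order of the second pair turned round without the short model of Pcdhgc4. The other neighbours in that order did not differ beyond their intervals.

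The highest beta genes were Pcdhb7 with 1.69 TPM in replicate 1 and 1.21 TPM in replicate 2, Pcdhb20 with 1.71 TPM and 1.16 TPM, and Pcdhb17 with 1.31 TPM and 1.12 TPM. They were the only beta genes at 1 TPM in both libraries. Pcdhb1, at the alpha side of the array, had 0 counts in both libraries, which allows up to 3 counts, or 0.0772 CPM (counts scaled to the library total) in replicate 1 and 0.0653 in replicate 2, by counting error only. At the other end, Pcdhb22 had 0.65 TPM and 0.70 TPM. Of 21 neighbouring pairs in the order of level, 0 were separated.

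In the alpha array the 12 alternate genes ran between 0.06 TPM (Pcdha8) and 0.76 TPM (Pcdha12) in replicate 1, and between 0.03 TPM (Pcdha1) and 1.11 TPM (Pcdha11, ENSMUSG00000102206) in replicate 2. Pcdha12 had 0.76 TPM and 0.88 TPM and was the highest alternate alpha gene by mean. Of 13 neighbouring pairs in the order of level, 0 were separated. The members near the constant exons tended to be higher: across the 14 alpha genes, order along the chromosome and TPM had a Spearman rho of 0.56 in replicate 1 and 0.49 in replicate 2. The same rho was 0.13 and 0.02 across the 22 beta genes and 0.26 and 0.20 across the 22 gamma genes. Without both C-type genes the alpha rho was 0.31 and 0.41 (n = 12). These are descriptions across genes that share libraries, constant exons and, in the alpha array, low counts.

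The 2 pools ranked the gamma genes alike, but not the alternate alpha genes. Spearman's rho between the TPM of replicate 1 and replicate 2 was 0.97 across the 22 gamma genes, 0.89 across the 22 beta genes and 0.29 across the 14 alpha genes, and 0.09 across the 12 alternate alpha genes. The size of the difference followed the same order. The median absolute log2 ratio of replicate 1 over replicate 2 was 0.16 for gamma genes, 0.39 for the 19 tested beta genes and 0.65 for alpha genes, beside 0.14 for all 17148 genes tested. Counts of alpha and beta genes were mostly under 100, and the value for all genes is not matched for count. Array and count cannot be told apart in these values.

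Single members were compared between the libraries with a two-sided exact binomial test on rounded counts, adjusted by Benjamini-Hochberg over all genes with at least 20 counts in the 2 libraries, with a call needing both an adjusted p below 0.05 and a log2 ratio at or beyond 1 in size. The test compares these 2 libraries and not conditions. It takes assigned counts as counted reads, so its p-values leave out the uncertainty of read assignment and the variation between pools. Of the 58 genes, 55 had enough counts, and 7 were called, beside 2.94% of all genes tested. Replicate 1 was higher for 3 of them, beside 1.60% of genes, and lower for 4, beside 1.34%. The 7 were 5 of 14 alpha genes, 2 of 19 tested beta genes and 0 of 22 gamma genes. The share of genes called depended on count. With summed counts of at least 100, it was 82 of 14065 genes (0.583%) and 3 of 44 members, made up of 3 of 12 alpha, 0 of 10 beta and 0 of 22 gamma genes. The shares over all genes above are not matched for count.

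The largest difference was that of Pcdha11 (ENSMUSG00000102206), with 11.1 counts in replicate 1 and 165 counts in replicate 2 (log2 ratio -3.54, adjusted p = 1.15e-28 by the exact binomial test). Its TPM of 0.12 in replicate 1 was below its own deposited interval, whose lower bound was 0.133, so the maximum likelihood and posterior estimates parted there, and its posterior mean TPM was 0.43 in replicate 1 and 1.26 in replicate 2. Such a value outside its interval occurred for 1 of 57 members with counts in replicate 1 and 0 of 57 in replicate 2, beside 4.56% and 3.71% of all genes with counts. Pcdha2 had 31.6 counts in replicate 1 and 96.8 counts in replicate 2 (log2 ratio -1.34, adjusted p = 1.31e-05 by the exact binomial test). Pcdha8 had 8.51 counts and 36.0 counts (log2 ratio -1.72, adjusted p = 0.00232 by the exact binomial test).

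Differences in the other direction were found for Pcdha1, the first gene of the array, with 16.5 counts in replicate 1 and 5.07 counts in replicate 2 (log2 ratio 1.75, adjusted p = 0.0234 by the exact binomial test). Pcdha7 had 69.2 counts and 38.8 counts (log2 ratio 1.07, adjusted p = 8.49e-04 by the exact binomial test). By this test the called alpha genes went both ways: 2 were higher and 3 lower in replicate 1. The deposited intervals of the 2 higher ones, Pcdha1 and Pcdha7, overlapped between the libraries, so movement in opposite directions is not settled. Among beta genes, Pcdhb10 had 7 counts in replicate 1 and 26 counts in replicate 2 (log2 ratio -1.52, adjusted p = 0.0168 by the exact binomial test). Pcdhb15 had 26 counts and 9 counts (log2 ratio 1.67, adjusted p = 0.0043 by the exact binomial test).

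The deposited intervals gave a stricter reading for alpha genes. Of the 55 tested members, 9 had TPM intervals that did not overlap between the libraries, beside 20.0% of tested genes. They were Pcdha2, Pcdha11 (ENSMUSG00000102206), Pcdhb7, Pcdhb10, Pcdhb15, Pcdhb20, Pcdhga5, Pcdhga6 and Pcdhgb7. Of the 7 called members, 4 were also apart by interval, and Pcdha1, Pcdha7 and Pcdha8 were not. With an assumed biological coefficient of variation of 0.1 in edgeR's exact test, 2 members stayed called, Pcdha2 and Pcdha11 (ENSMUSG00000102206). Gamma genes could differ by less than the minimum ratio: Pcdhgb7 had 640 counts in replicate 1 and 544 counts in replicate 2 (log2 ratio 0.49, adjusted p = 1.12e-07 by the exact binomial test).

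**Figure D2:**
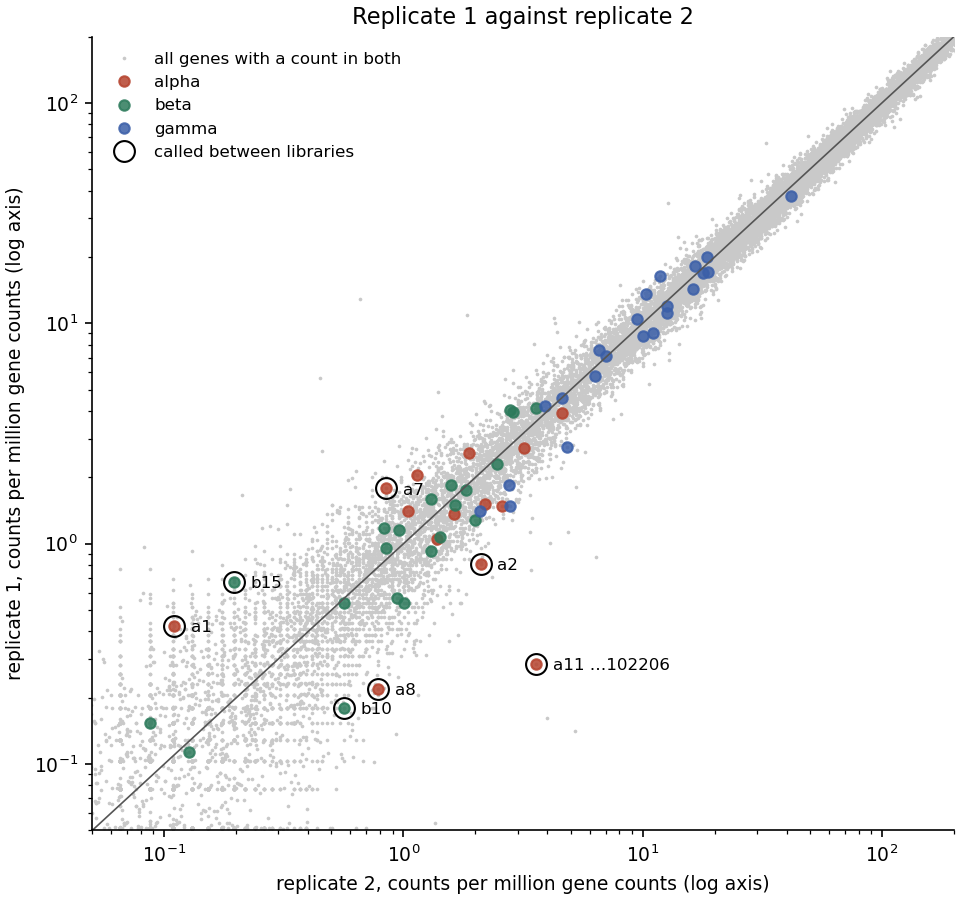
Counts scaled to the library total (CPM) in replicate 1 (vertical, log axis) against replicate 2 (horizontal, log axis), with all genes in grey, members coloured by array, the diagonal marking equality and open circles marking the 7 called members. Gamma genes lie along the diagonal, while Pcdha11 (ENSMUSG00000102206), at 11.1 counts in replicate 1 and 165 in replicate 2, lies farthest from it among members.

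The summed counts of each array differed less between the pools than its median gene did in absolute log2 ratio. The log2 ratio of replicate 1 over replicate 2 was -0.02 for the summed gamma counts, 0.09 for the summed beta counts and -0.32 for the summed alpha counts, with 840 alpha counts in replicate 1 and 1247 in replicate 2.

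The share of sequence that members have in common was computed from the annotated transcripts, since it sets how reads can be assigned. In the longest protein-coding model of each alpha gene, a median of 55.1% of 100-base windows also occurred in another member, with a range of 47.7% to 58.4%. The gamma median was 44.1%, with a range of 40.7% to 64.0%, and the beta median was 0.207%, with 9 beta genes sharing none. The longest run in common had a median length of 2863 bases among alpha genes, 2123 bases among gamma genes and 110 bases among beta genes. Beyond the constant exons, Pcdhga4 stood out, with 939 windows found otherwise only in Pcdhgb1, and Pcdhb21 and Pcdhb22, whose annotated spans overlap, shared a run of 455 bases.

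The deposited counts showed where reads had been split between models. A count that is not whole came with 14 of 14 alpha genes in replicate 1 and 13 of 14 in replicate 2, with all 22 gamma genes in both, and with 3 and 5 of 22 beta genes. Over all genes with a count the share was 27.6% in replicate 1 and 27.8% in replicate 2. Levels of single alpha and gamma genes are therefore estimates that include an assignment of constant-exon reads. The summed counts of an array do not depend on how reads were divided within it. Summed TPM does depend on that, because TPM is scaled by model length. In the gamma sum the short model Pcdhgc4-203 held 6.42 TPM in replicate 1 and 7.94 TPM in replicate 2. Division of reads with genes outside an array was not tested.

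The deposited intervals were narrower where counts were higher. The ratio of upper to lower bound had a median of 1.31 in replicate 1 and 1.29 in replicate 2 for gamma genes, 1.92 and 1.81 for beta genes with counts, and 2.05 and 1.95 for alpha genes. Across the 57 members with counts, Spearman's rho between count and interval ratio was -0.92 and -0.91, and between shared windows and interval ratio -0.01 and -0.06. The arrays differ in count and in shared windows together, so these values do not weigh count against sharing. Among genes with 30 to 120 counts, the median interval ratio was 2.00 for 10 alpha genes and 1.79 for 11 beta genes in replicate 1, and 2.16 for 10 alpha genes and 1.80 for 13 beta genes in replicate 2. Few gamma genes lay in that range: 4 in replicate 1, with a median of 1.76, and 1 in replicate 2, at 2.87. Pcdhgc5 had the widest interval of the gamma genes, with a ratio of 4.45 in replicate 1 and 2.87 in replicate 2, the gene whose posterior mean and maximum likelihood TPM parted above.

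**Figure D3:**
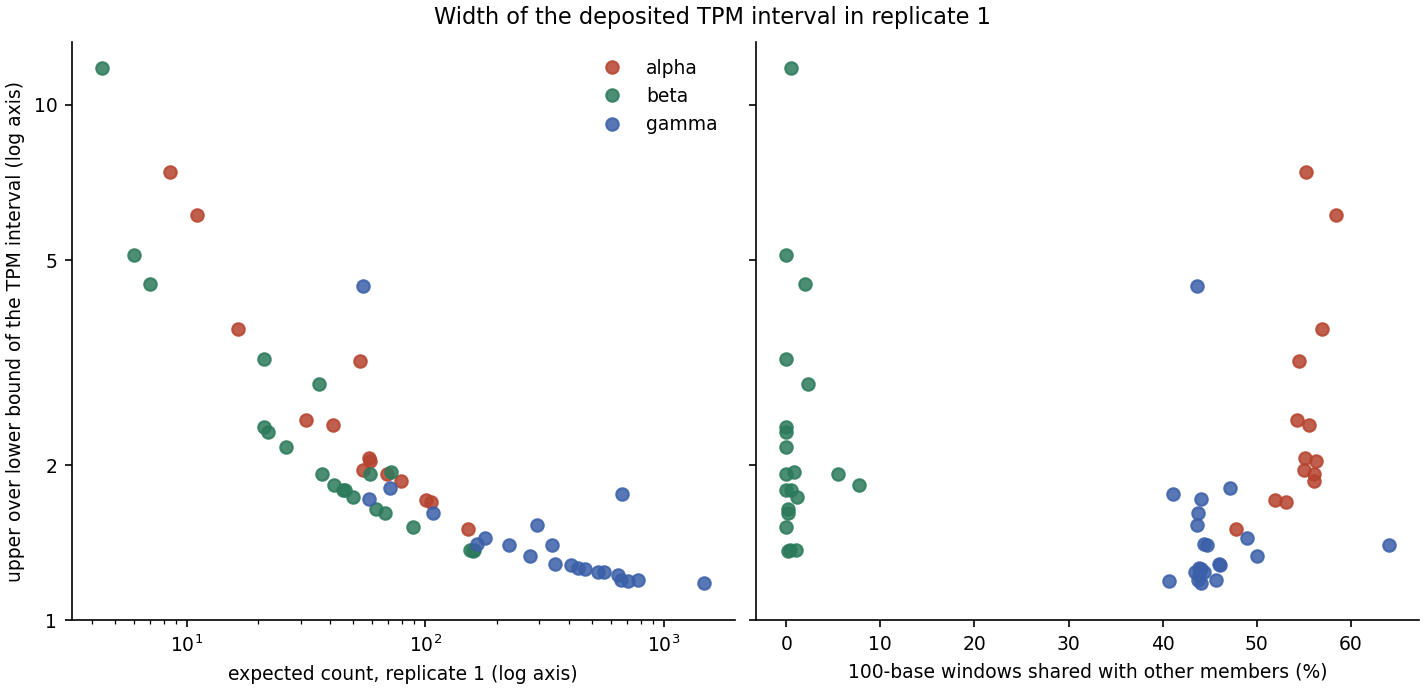
Upper over lower bound of the deposited TPM interval of each member with counts in replicate 1 (log axis), against its expected count (left, log axis) and against the share of 100-base windows it has in common with other members (right, linear axis), coloured by array. Intervals narrow as counts rise (rho -0.92), and the widths of beta genes, which share few windows, overlap those of alpha genes, which share many.

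The leading transcript was the same in both libraries for most gamma and beta genes and for few alpha genes, whose models share much sequence and have low counts; the difference between arrays was not tested. Of 21 members with several transcripts and counts in both libraries, 16 had the same leading transcript in both, beside 86.1% of all such genes. The 16 were 11 of 12 gamma genes, 4 of 4 beta genes and 1 of 5 alpha genes. Pcdha6 was assigned entirely to Pcdha6-201 in replicate 1 (0.45 TPM) and entirely to Pcdha6-202 in replicate 2 (0.28 TPM). Pcdha2 had all of its 0.26 TPM on Pcdha2-202 in replicate 1 and 50.1% on Pcdha2-201 in replicate 2. Pcdha11 (ENSMUSG00000102206) had 0 counts on Pcdha11-202 in replicate 1 and 128 in replicate 2, which made up most of its difference between the pools. The gamma exception was Pcdhga1, with 95.1% on Pcdhga1-202 in replicate 1 and 46.9% in replicate 2. By posterior means, the 2 models of Pcdha6 held 48.2% and 35.4% of the gene in replicate 1 and 23.6% and 56.3% in replicate 2, which is less than a complete switch.

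**Figure D4:**
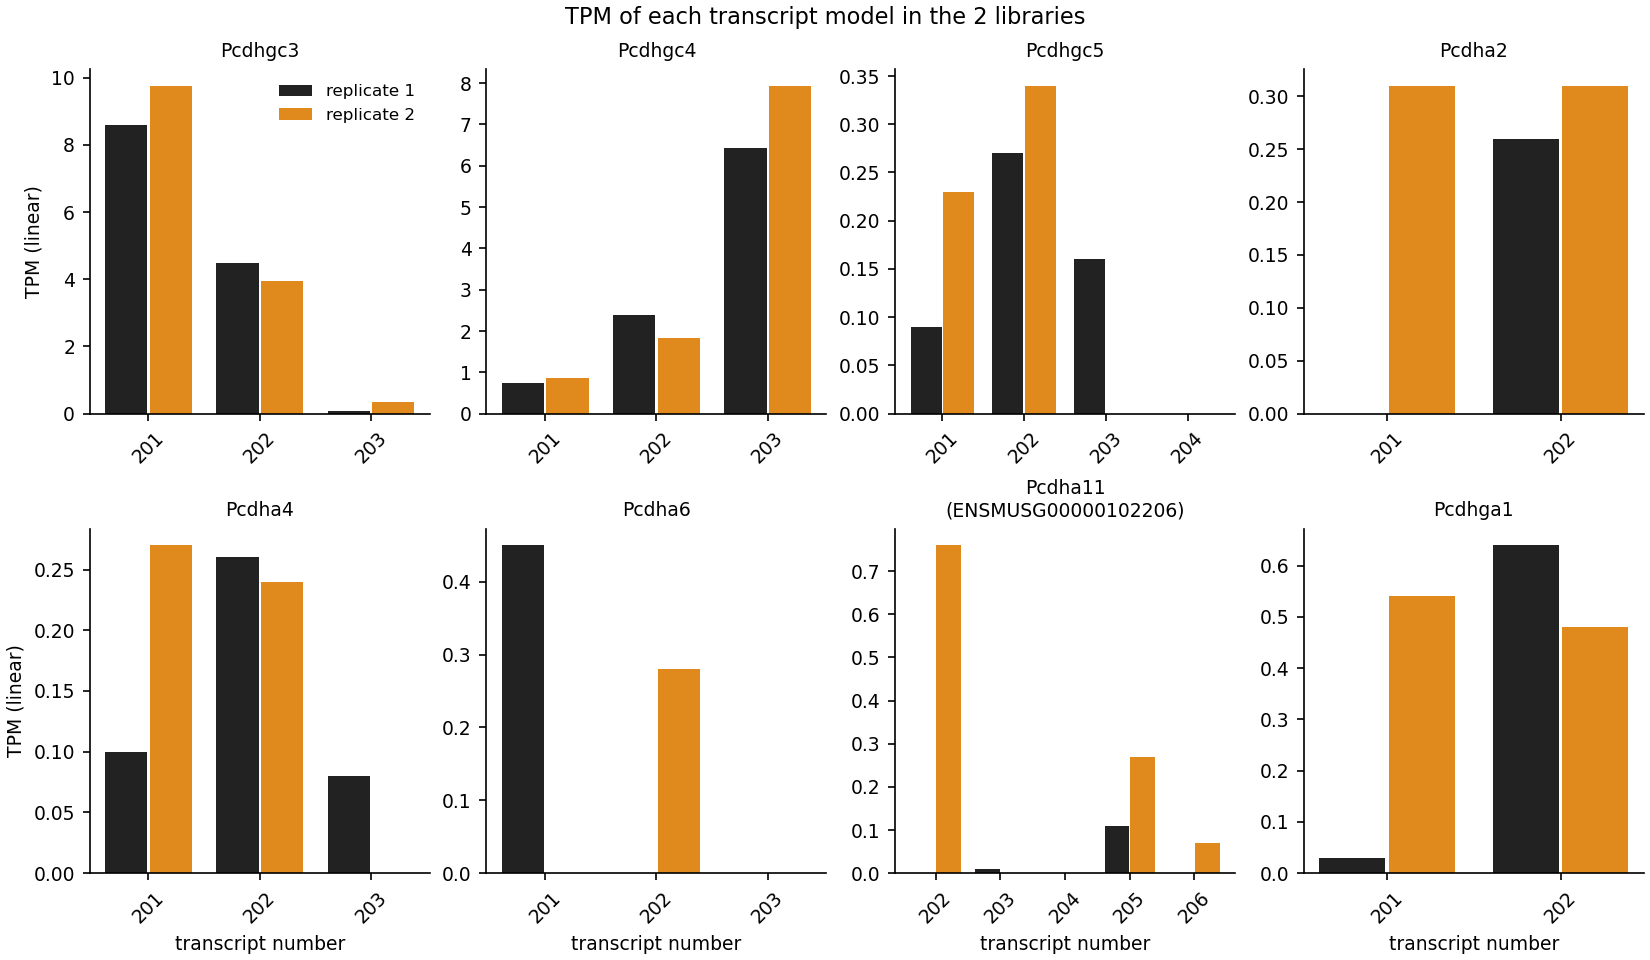
TPM (linear axis, from 0, own scale per panel) of each transcript model of the 3 gamma C-type genes and of the 5 genes whose leading transcript differed, in replicate 1 (black bars, left of each pair) and replicate 2 (orange bars). Pcdhgc4-203 leads its gene in both libraries at 6.42 and 7.94 TPM, whereas Pcdha6 stands on model 201 in replicate 1 and on model 202 in replicate 2.

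The annotation places 28 other genes in this region, counting the gene that follows the gamma array, 16 of them on the opposite strand. Of the 28, 6 were at 1 TPM in both libraries, beside 32.1% of all genes. Between the libraries 0 were called, beside 2.94% of all genes tested. However, 9 of the 28 had 0 counts in both libraries, and others had fewer than the 20 summed counts needed for the test. Taf7, a general transcription factor subunit between the beta and gamma arrays, was the only such gene above 10 TPM, with 24.76 TPM in replicate 1 and 22.41 TPM in replicate 2. Diaph1, an actin nucleator that follows the gamma array, had 5.18 TPM and 3.66 TPM. Among opposite-strand genes inside the arrays, Gm10544 in the alpha array had 4.09 TPM in replicate 1 and 2.88 TPM in replicate 2. In the gamma array Gm26672 had 3.29 TPM and 2.30 TPM, and BC037039 had 3.17 TPM and 2.52 TPM. The labels and files do not state whether strand was used in counting, so antisense and member reads cannot be told apart at these loci. The 3 gene models that overlap all 58 members, Gm42416, Gm37013 and Gm37388, had 0 counts in both libraries.

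Genes listed for promoter choice and chromatin had a higher median level than any of the 3 arrays, though their lowest members, such as Dnmt3b, lay below Pcdhgc3. Of 24 listed regulators, 24 were detected, beside 58.2% of protein-coding genes, with a median of 45.2 TPM in replicate 1 and 45.3 TPM in replicate 2. The highest were the cohesin subunit Smc1a with 105.92 TPM and 99.43 TPM, the DNA methylation cofactor Uhrf1 with 93.8 TPM and 106.22 TPM, and the insulator protein Ctcf with 84.29 TPM and 83.15 TPM. Dnmt3b, the de novo methyltransferase tied to alternate promoters, had 9.69 TPM in replicate 1 and 9.92 TPM in replicate 2. Between the libraries 0 of the 24 were called, beside 2.94% of all genes tested.

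Of 23 listed partners and downstream genes, 21 were detected, beside 58.2% of protein-coding genes, and 0 were called, beside 2.94% of all genes tested. Their median was 36.0 TPM in replicate 1 and 34.2 TPM in replicate 2. Catenin beta 1 (Ctnnb1) led with 626.4 TPM and 615.54 TPM, followed by the kinase C substrate Marcks with 339.03 TPM and 315.57 TPM and the small GTPase Rac1 with 285.91 TPM and 280.1 TPM. Focal adhesion kinase (Ptk2), which the cytoplasmic ends of the proteins bind and inhibit, had 62.27 TPM and 64.66 TPM, while its relative Ptk2b had 0.63 TPM and 0.55 TPM.

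Non-clustered protocadherins and related cadherins offered a comparison by family. Of 20 listed, 18 were detected, beside 58.2% of protein-coding genes, and 0 were called, beside 2.94% of all genes tested. Their median was 4.96 TPM in replicate 1 and 5.37 TPM in replicate 2, near the gamma median and above the alpha and beta medians. N-cadherin (Cdh2) had 187.56 TPM and 173.74 TPM, Pcdh18 had 67.02 TPM and 65.35 TPM, and Celsr2, a planar polarity cadherin, had 47.72 TPM and 50.72 TPM. Each of the 3 was above Pcdhgc3 in both libraries. TPM is scaled by transcript length, so these levels can be set beside each other, within the limits of read assignment given above.

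**Figure D5:**
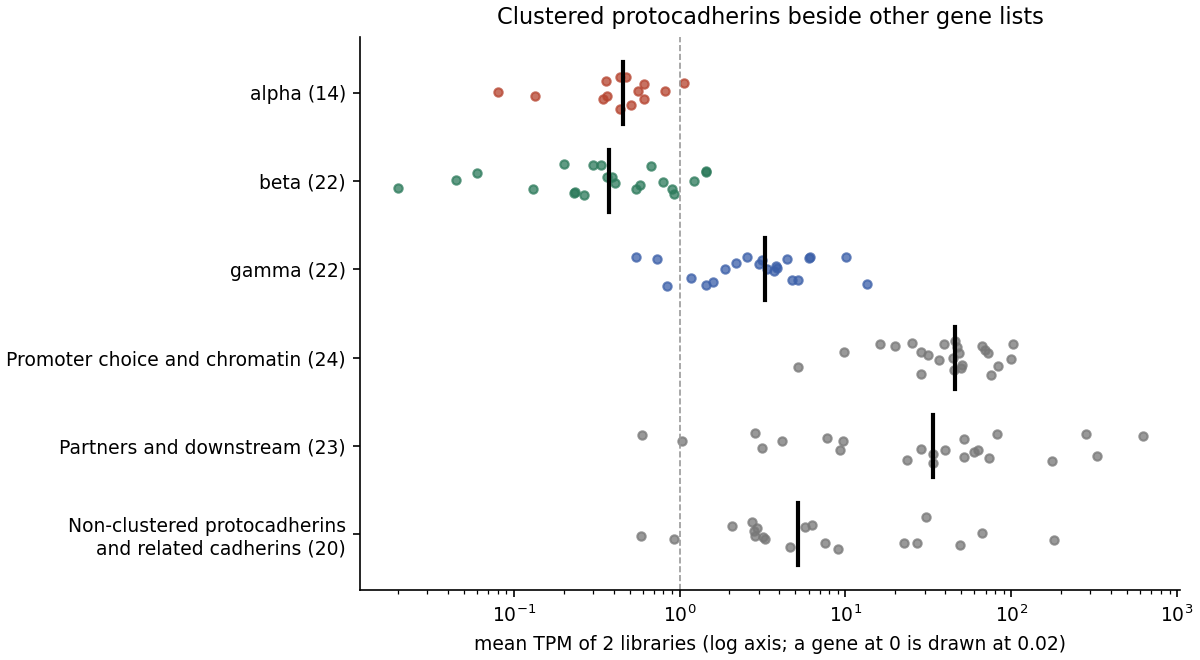
Mean TPM of 2 libraries (log axis) of each gene in the 3 arrays and in 3 listed groups, with list sizes in brackets, vertical bars at list medians, vertical scatter without meaning and the dashed line at 1 TPM. Gamma genes overlap the non-clustered protocadherins and related cadherins, alpha and beta genes lie mostly below 1 TPM, and the listed regulators, with medians of 45.2 and 45.3 TPM by library, lie above all 3 arrays' medians.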

How the data were processed

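Per the labels' protocols, RNA was extracted with a mirVana kit, with ERCC spike-ins, and a Smart-seq protocol is cited, which amplifies cDNA, so intervals and floors cover counting error only. The notes deposited with the files name mm10 and annotation M4; no source used here names the aligner, quantifier, versions or strand use. Per the file headers, the authors deposited an expected count, TPM (maximum likelihood and posterior mean), FPKM and TPM interval bounds per gene and transcript, and each transcript's percent of its gene. The deposited bounds were treated as signal, and their level is not given. TPM is scaled over all rows, spike-ins included. The 96 spike-in rows, 26248 numeric rows and 1 other row entered neither gene totals nor tests, the last 2 kinds holding 4.44 and 13.25 counts.

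Symbols and 1-based coordinates came from GENCODE M21 on mm10, in which all 88 member transcripts had the deposited length. Promoter and protein sequences of the members were not used here. Expected counts were rounded, scaled by TMM (edgeR 4.0.16, R 4.3.3) and compared with exact binomial tests (scipy 1.17.1) with a prior count of 1 in ratios, since 1 library per pool leaves no residual degrees of freedom for edgeR's quasi-likelihood test. In simulated data for this comparison over 17135 genes, 100 of 100 genes changed 3-fold and 100 of 100 changed 8-fold were called, and 1 of 16935 unchanged genes. The simulated counts varied by counting error only, and the changed genes had summed counts of at least 100. The simulation therefore does not give the rate of calls between real pools, or the rate among genes of lower count. A count was fractional if over 0.005 from a whole number. DESeq2 1.42.0 size factors were an alternative.

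The members, gene lists, pairs and tests were chosen with earlier results of these data known. Any member could be named; named by rule were C-type genes, the 3 highest and the members at 0 of each array, called members, array ends, the 3 highest of each list and neighbours at 10 TPM or more. Outside that rule, Dnmt3b, Ptk2, Ptk2b, Diaph1, Gm10544, Gm26672, BC037039 and the models that overlap all members were chosen after their values were seen. The replicates are separate embryo pools under 1 strain label, so the spread is that between pools. A result on 1 listed cell type marker is not reported here.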

Additional observations from a re-analysis of the deposited data

How the results depend on the processing

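The order of the array sums, the gamma excess over alpha and beta, and the direction of every called ratio held under each setting run. Counts detected were 34 in all, 3 alpha and 9 beta at 0.5 TPM, 0 beta at 2 TPM, 4 in all, 4 gamma and 0 beta at 5 TPM, and 0 beta by FPKM; without replicate 1 or 2 the alpha count was 0 to 2. In CPM the sums were 246 for gamma, 29.7 for beta and 24.4 for alpha. The gamma sum was 83.25 TPM by posterior means, 72.3 TPM from protein-coding transcripts and, chosen after seeing the data, 77.0 TPM without models over 90% shared. On the log2 scale, a pseudocount of 1 gave 1.51 for gamma over alpha, 1.60 for gamma over beta, -0.088 for beta over alpha and 0.24 for C-type over alternate, and 0.01 gave 2.74 and 3.03 for the gamma contrasts. Members at 1 TPM gave 1.33 for gamma over beta and 1.88 for C-type over alternate, with no alpha gene left to compare. CPM gave 3.03 for gamma over beta, -0.46 for beta over alpha and 1.08 for C-type over alternate, and posterior means gave -0.15 for beta over alpha. Called members numbered 3 (all alpha) at 100 counts or more with beta at 0, 18 with no minimum ratio (5 beta, 6 gamma), 2 (both alpha, beta at 0) by edgeR's exact test with an assumed variation of 0.1, and 4 (2 alpha) where intervals also had to part; the 7 stayed called with DESeq2, total or spike-in scaling, no count filter and, chosen after seeing the data, posterior mean counts. Over all genes 502 to 507 were called under those scalings, 82 at 100 counts, 155 by edgeR, 224 with parted intervals and 6102 without a minimum ratio, against 505. Without models over 90% shared, whose reads were not assigned anew, the gamma C-type excess over alternate genes was 0.022 and -0.20, and Pcdhgc4 lay below Pcdhga7. Windows of 50 bases raised the shared median to 60.0% for alpha and 4.26% for beta, and ranking by count gave an order rho of 0.23 for beta. Of 135 values under alternatives, 94 did not move, by a fixed fold limit for counts and by the SD for other values. A single library always lies within the SD of a mean of 2 libraries. Leaving 1 library out could therefore not count as moving the sums, the contrasts or the order rho. The tally is not a measure of robustness. No paired analysis was possible because the series has 1 group. Depth limits the alpha and beta genes, whose counts were mostly under 100.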
